A study of Homo sapiens with 12 samples.

Results

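The ATF4 amino acid stress response is a set of 40 genes that ATF4 and its partner transcription factors are known to control in cells short of amino acids or under other stress. The members were named by symbol from general knowledge of the pathway, with earlier results of these data known. All 40 were found among the 58735 genes of the deposited tables. They comprise 6 transcription factors, 5 stress effectors, a secreted protein and a lipoprotein receptor, 9 enzymes of amino acid and one-carbon metabolism, 6 amino acid transporter subunits and 12 cytosolic aminoacyl-tRNA synthetases.

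Background: kinases that sense amino acid shortage, unfolded protein, heme shortage or double-stranded RNA phosphorylate the translation factor eIF2 alpha, which lowers protein synthesis overall while raising translation of the ATF4 mRNA. ATF4 then pairs with C/EBP proteins on short composite elements in promoters and raises transcription of genes that make, import and charge amino acids. It also induces regulators that limit growth signalling, restore translation or, in long stress, favour cell death.

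Expression was measured by RNA sequencing in HLE-B3 cells, a virus-immortalized line derived from human lens epithelium, in 4 groups of 3 biological replicates. WT cells and cells with a CRISPR/Cas9 knockout of the autophagy gene ATG7 (labelled Atg7KO, written ATG7 KO here) were either untreated and taken at 0 h or exposed to 200 μM H2O2 for 12 h. Knockout lines were made by transfection, puromycin selection and growth of single colonies, and the labels do not say which clone or clones were sequenced. Each library held between 15602183 and 17659496 reads counted on genes. The comparisons address how the response to H2O2, an oxidant, proceeds in lens cells with and without ATG7. Because the untreated cells were taken at 0 h, an effect of H2O2 cannot be told apart from 12 h more in culture, and a difference between the lines cannot be told apart from a difference between clones.

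Levels are given as FPKM, reads scaled for gene length and library size, listed for replicates 1, 2 and 3. The mRNA of the targeted gene, ATG7, which encodes the E1-like enzyme of autophagosome formation, stood at 2.81, 2.64 and 2.21 FPKM in untreated WT cells and 1.99, 1.91 and 1.97 in WT cells with H2O2. It stood at 3.78, 3.42 and 3.43 in untreated ATG7 KO cells and 2.11, 2.12 and 2.35 in ATG7 KO cells with H2O2. Its level was thus no lower in the knockout libraries (log2 fold change 0.47, adjusted p 0.0348 untreated and 0.15, adjusted p 0.135 with H2O2), and gene-level mRNA cannot check a small edit in the coding sequence. The study's methods state that picked clones were checked for loss of the protein by western blot.

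Of 10 lens epithelial markers, the gap junction gene GJA1 was at 23.7 to 51.8 FPKM over the 12 libraries, SIX3 at 1.85 to 3.21 and PAX6, the eye master regulator, at 0.505 to 1.35, while CRYAB, a small heat shock protein of the lens, was at 0.132 to 0.197 in untreated WT, 1.43 to 1.98 in WT with H2O2, 0 to 0.0356 in untreated ATG7 KO and 0.866 to 1.003 in ATG7 KO with H2O2. SOX2 had no reads in any library, and FOXE3, CRYAA, PROX1, MAF and CDH1 stayed at or near 0. The summed level of the list was 30.0 to 31.0 in untreated WT, 46.9 to 50.7 in WT with H2O2, 26.2 to 27.8 in untreated ATG7 KO and 53.3 to 56.0 in ATG7 KO with H2O2. Several defining lens markers were therefore absent, as were most of 6 lens fibre markers (sums between 1.28 and 2.60, led by CRYGS). Of 6 fibroblast markers, COL1A1 was the most abundant, and the list summed to 649 to 682 in untreated WT, 292 to 309 in WT with H2O2, 373 to 527 in untreated ATG7 KO and 258 to 267 in ATG7 KO with H2O2, with COL3A1 and DCN at or near 0. Sums of 4 leukocyte markers were at most 1.63, with LYZ the most abundant in untreated WT. The part of these shifts in the members' values was not tested.

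Untreated ATG7 KO replicate 1 stood apart from the other libraries. Its mean correlation with its own group, on log2 counts after TMM scaling, was 0.974, against 0.983 for each of its 2 group mates and 0.991 for libraries of the other groups. Genes over 5000 bases took 49.8% of its counts, against 58.6% and 58.7% in its group mates. That share was 58.6, 59.1 and 58.7% in untreated WT, 53.9, 54.0 and 53.5% in WT with H2O2 and 57.9, 58.2 and 58.3% in ATG7 KO with H2O2, so long genes also took less of the WT counts with H2O2. For comparisons that use untreated ATG7 KO cells, counts of members and of the other pathway lists are given with and without that library, and so are single values whose call it decides for the members described by library.

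Together the 40 members took a mean of 0.487% of counts in untreated WT (SD 0.00562, n = 3) and 0.758% in WT with H2O2 (SD 0.0386). In ATG7 KO cells the share was 0.413% untreated (SD 0.0111) and 0.553% with H2O2 (SD 0.00149). The 4 groups did not overlap in this share: ATG7 KO cells stood below WT cells both without and with H2O2, and each line stood higher with H2O2. On the summed FPKM of the members the untreated groups did overlap. Untreated ATG7 KO replicate 1 was at 1001, within the untreated WT values of 976 to 1021, and its group mates were at 848 and 843. The map of the 40 members shows the gene-by-gene pattern beneath these shares, with WT libraries with H2O2 highest for most members.

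**Figure D1:**
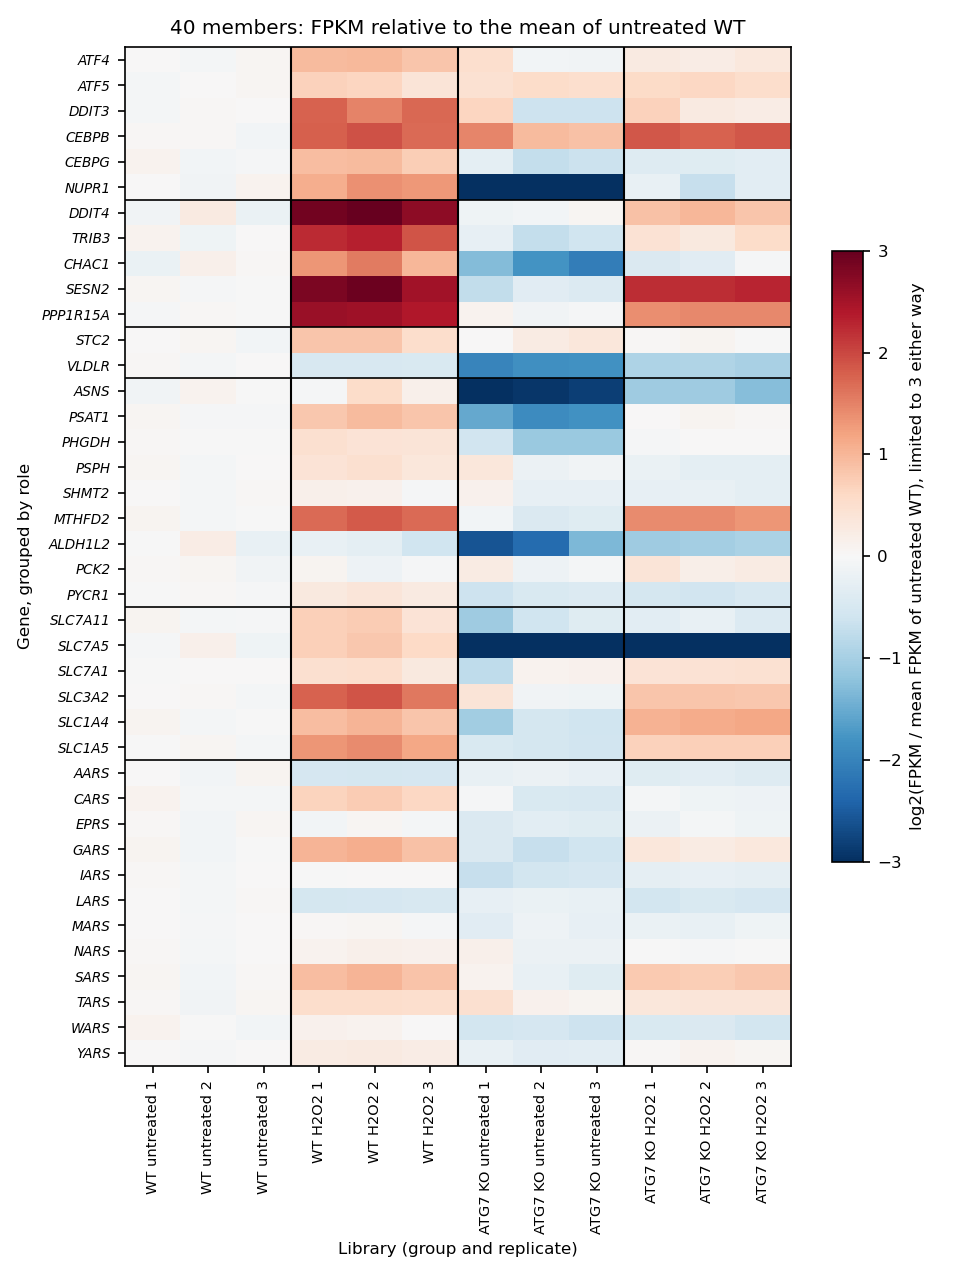
Level of each of the 40 members in the 12 libraries, as log2 FPKM relative to the gene's mean in untreated WT, with colours limited at -3 and 3, members grouped by role and libraries by group. Most members are highest in the 3 WT libraries with H2O2, and SLC7A5 is low in all 6 ATG7 KO libraries.

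Promoter sequence is a feature that the choice of members did not read from these data, although members were chosen as known targets of ATF4. RefSeq promoter windows on GRCh38.p14, 250 bases before to 50 after a transcription start, were at hand for 32 members, and NUPR1, PSPH, SHMT2, ALDH1L2, PYCR1, SLC7A11, LARS and YARS had none. The motif TGATGNAA, the core of the C/EBP-ATF composite element, was sought on both strands. It lay in a window of 14 of these 32 members (43.8%) and of 1217 of all 27305 genes with windows (4.46%). By window, the share was 27.5% of 51 member windows and 3.62% of all 35116. The 14 members were CEBPG, CHAC1, ASNS, SLC7A1, SLC3A2, SLC1A4, SLC1A5, AARS, CARS, GARS, IARS, MARS, NARS and TARS. A match describes letters and is no evidence of binding in these cells.

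The windows of 5 members are printed because these have a match and are described by library below. They are ASNS at chr7:97872359-97872658 on the minus strand, SLC3A2 at chr11:62881449-62881748 on the plus strand, SLC1A4 at chr2:64989149-64989448 on the plus strand, CARS at chr11:3057374-3057673 on the minus strand and GARS at chr7:30594628-30594927 on the plus strand. Each is written 5′ to 3′ on the gene's strand, with capitals marking the match, which reads TTNCATCA where the motif is on the opposite strand.
ASNS: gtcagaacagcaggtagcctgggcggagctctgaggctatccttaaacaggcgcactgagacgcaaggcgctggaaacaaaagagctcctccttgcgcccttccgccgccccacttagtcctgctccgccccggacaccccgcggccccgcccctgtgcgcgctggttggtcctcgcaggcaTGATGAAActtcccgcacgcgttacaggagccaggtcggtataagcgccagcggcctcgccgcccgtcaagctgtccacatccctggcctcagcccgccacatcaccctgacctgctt
SLC3A2: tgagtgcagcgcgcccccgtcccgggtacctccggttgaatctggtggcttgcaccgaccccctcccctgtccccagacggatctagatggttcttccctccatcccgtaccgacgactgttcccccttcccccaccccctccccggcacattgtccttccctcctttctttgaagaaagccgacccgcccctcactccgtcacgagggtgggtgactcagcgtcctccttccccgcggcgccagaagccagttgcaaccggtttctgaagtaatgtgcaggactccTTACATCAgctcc
SLC1A4: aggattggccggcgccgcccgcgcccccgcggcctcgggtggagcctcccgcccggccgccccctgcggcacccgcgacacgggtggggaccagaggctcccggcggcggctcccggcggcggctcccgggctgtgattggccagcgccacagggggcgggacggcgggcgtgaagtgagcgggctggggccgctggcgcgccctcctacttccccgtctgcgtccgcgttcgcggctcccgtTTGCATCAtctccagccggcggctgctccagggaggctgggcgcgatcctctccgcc
CARS: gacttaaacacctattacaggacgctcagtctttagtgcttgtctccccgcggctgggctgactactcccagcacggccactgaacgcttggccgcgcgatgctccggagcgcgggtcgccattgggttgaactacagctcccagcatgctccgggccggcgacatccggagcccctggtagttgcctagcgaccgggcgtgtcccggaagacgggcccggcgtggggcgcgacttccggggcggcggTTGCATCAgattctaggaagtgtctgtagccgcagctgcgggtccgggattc
GARS: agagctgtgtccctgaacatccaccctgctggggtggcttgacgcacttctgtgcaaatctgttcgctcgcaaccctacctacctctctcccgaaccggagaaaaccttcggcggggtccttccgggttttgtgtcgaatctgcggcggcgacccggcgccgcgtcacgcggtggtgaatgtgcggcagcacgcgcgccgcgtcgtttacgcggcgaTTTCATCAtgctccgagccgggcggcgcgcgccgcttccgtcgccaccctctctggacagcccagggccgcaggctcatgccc

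Matches lay close to the annotated start in many of these members: the first base was at -2 in CARS, -4 in MARS, -7 in SLC1A4 and 2 in TARS, and at -209 and -187 in CHAC1 and AARS, the farthest upstream. With H2O2 in WT cells, by the test described below, 10 of the 14 members with a match rose, AARS fell, and ASNS, IARS and MARS did not pass. Of the 18 members whose windows hold no match, 14 rose, 1 fell and 3 did not pass. Over all genes, 30.9% were higher and 30.1% lower in that test.

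In WT cells, H2O2 was followed by higher levels of most of the set. DDIT4, an inhibitor of the growth kinase complex mTORC1, rose 7.47-fold, SESN2, a leucine sensor that also restrains mTORC1, rose 6.79-fold, and PPP1R15A, which recruits the phosphatase that reverses eIF2 alpha phosphorylation, rose 5.68-fold. ATF4 itself rose 1.88-fold. In edgeR's quasi-likelihood test of every gene, with a member called at a Benjamini-Hochberg adjusted p under 0.01, 29 of 40 members were higher, against 30.9% of the 15913 genes tested. A further 3 were lower, against 30.1%: VLDLR, AARS and LARS. The median log2 fold change was 0.66 over members and -0.0053 over all genes. Stricter thresholds were modelled on the study's, which also ask for a log2 fold change beyond 1 and FPKM above 1, with the latter read here as a group mean in at least 1 group. Under these, 11 members were higher, against 7.30% of genes, and 0 were lower, against 5.24%. At an unadjusted p under 0.05, edgeR called 33 members in either direction, against 11347 of the 15913 genes. DESeq2 at adjusted p under 0.01 called 3 lower, against 26.9%. With an offset for gene length, 31 members were higher and 3 lower, against 32% and 27.7%.

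In ATG7 KO cells, H2O2 was followed by a rise of SESN2 (6.57-fold), MTHFD2 (3.18-fold), SLC1A4 (3.49-fold) and PSAT1 (3.43-fold), while ATF4 did not pass the test (0.13 (SE 0.17, adjusted p 0.562)). Of 39 members tested, 16 were higher, against 13.6% of 15475 genes. SLC7A5 had too few reads to be tested. No member was lower by edgeR (0, against 12.4% of genes). At an unadjusted p under 0.05, edgeR called 23 members in either direction, against 7952 of the 15475 genes. DESeq2 called 1 lower, against 17%. The median was 0.48 over members and -0.032 over all genes. The stricter thresholds left 8 higher, against 6.09% of genes, and 0 lower, against 5.11%. Without untreated ATG7 KO replicate 1, 29 members were higher and 3 (STC2, AARS and LARS) lower, against 29.8% and 28.6% of genes, and the median was 0.39. Without ATG7 KO replicate 1 or 3 with H2O2, 10 were higher in each case, against 6.56% and 6.57% of genes. With an offset for gene length, 16 were higher, against 17.5%.

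The responses of the lines, which have no library in common, were also compared gene by gene. Of the 29 members higher in WT and the 16 higher in ATG7 KO cells, 14 were the same genes, 48.3% of the first list and 87.5% of the second. Over all genes, the lists of 4915 and 2107 shared 1662, or 33.8% and 78.9%. With untreated ATG7 KO replicate 1 left out, 24 members were shared between lists of 29 and 29 (82.8% of each), and 3049 of all genes between lists of 4915 and 4768 (62% and 63.9%). Across 39 members the log2 responses of the lines correlated with r 0.508 and rho 0.549, and across 14895 genes with r 0.696 and rho 0.559, so neither was higher over members than over genes overall. Without that library the values were r 0.564 and rho 0.636 for members and r 0.733 and rho 0.651 for all genes. These are descriptions across genes, which are not independent replicates.

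With H2O2 in both lines, most of the set was lower in ATG7 KO than in WT cells. SLC7A5, the light subunit of the leucine transporter LAT1, was 124-fold lower, DDIT4 4.04-fold, TRIB3, a pseudokinase that binds ATF4 and CHOP, 3.32-fold, and NUPR1, a small stress-induced chromatin protein, 3.16-fold. ATF4 was 1.57-fold lower. The value of SLC7A5 rests on 3, 7 and 4 reads in ATG7 KO with H2O2, and over the alternatives its log2 value ran from -7.36 to -2.98. In all, 31 of 40 members were lower, against 27.9% of 15909 genes, and 3 (PCK2, SLC1A4 and AARS) were higher, against 27.7%. Medians were -0.58 over members and -0.0022 over all genes. Under the stricter thresholds 9 were lower, against 4.43%, and 0 higher, against 3.03%. At an unadjusted p under 0.05, edgeR called 36 members in either direction, against 10708 of the 15909 genes. DESeq2 called 2 higher, against 25%. The count of higher members was 1 without WT replicate 1 with H2O2 and 1 without ATG7 KO replicate 2 with H2O2, against 24% and 25% of genes. With an offset for gene length, 32 members were lower and 3 higher, against 27.2% and 26%. This comparison shares its WT libraries with the WT response, so the values of both are given side by side below and not correlated.

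Between untreated cells, fewer members passed the test. SLC7A5 (55.5-fold), NUPR1 (16.1-fold) and ASNS, asparagine synthetase (9.04-fold), were lower in ATG7 KO cells, and CEBPB, a C/EBP partner of ATF4, was 2.17-fold higher. SLC7A5, NUPR1 and ASNS had 3 to 12 reads in each untreated ATG7 KO library. Over the alternatives their log2 values ran from -6.05 to -2.35, -4.23 to -1.18 and -3.43 to -0.76 in that order. In all, 12 members were lower, against 3.28% of 15357 genes, and 1 was higher, against 4.42%. Medians were -0.30 over members and 0.0055 over all genes. Under the stricter thresholds 5 members were lower, against 1.23%, and 1 higher, against 2.27%. Without untreated ATG7 KO replicate 1, 28 were lower and 3 (ATF5, CEBPB and STC2) higher, against 17.9% and 18.2% of genes, with a median of -0.39. Leaving out any one of the 3 untreated WT libraries gave 4 lower and 0 higher (over all genes 0.68% to 0.713% and 1.14%), leaving out ATG7 KO replicate 2 gave 5 and 0 (1.25% and 2.11%), and leaving out replicate 3 gave 6 and 1 (1.26% and 2.13%) by the same edgeR test, so calls became fewer over all genes too. With all libraries, 26 members had an unadjusted p under 0.05 by edgeR, against 5048 of the 15357 genes. DESeq2 called 19 lower and 2 higher, against 7.57% and 8.78%. The replicate block gave 5 lower and 0 higher, against 1.21% and 2.04% of genes. Limma on log2 of FPKM plus 1 gave 7 lower and 1 higher, against 2.87% and 3.85%. All 12 members lower here were also among the 31 lower with H2O2, or 38.7% of the longer list, and no library is shared between these lists. Over all genes 361 were shared, 8.14% of 4433 and 71.8% of 503. Without untreated replicate 1, 23 of the 28 members lower were shared (82.1%, and 74.2% of 31), against 1449 of all genes, 51% of 2843 and 32.7% of 4433.

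The difference between the responses (ATG7 KO minus WT) was tested directly in a fit of all 12 libraries. Of the members called, the lowest values, for a response lower in ATG7 KO cells, were DDIT4 at -1.96, TRIB3 at -1.21, CEBPB at -1.08 and PPP1R15A at -1.08 on the log2 scale. The highest of those called were NUPR1 at 2.36, ASNS at 1.80, VLDLR at 1.41 and PSAT1 at 0.92, each of which was lower in untreated ATG7 KO than in untreated WT cells. That comparison shares its untreated libraries with the difference, so a low untreated ATG7 KO value raises the difference by construction. In all 9 members were lower, against 7.01% of 16856 genes, and 6 higher, against 7.02%. The medians were -0.077 and -0.033. Under the stricter thresholds 4 were lower, against 3.24%, and 3 higher, against 1.93%. Without untreated ATG7 KO replicate 1, 13 were lower and 12 higher, against 16.3% and 17.8% of genes, and these held all 15 called with it. Leaving out any one library gave 6 to 13 lower and 4 to 12 higher, where all genes gave 4.1% to 16.3% and 3.59% to 17.8%, with 6 lower without WT replicate 2 or 3 untreated, WT replicate 1 or 2 with H2O2, or any ATG7 KO replicate with H2O2. With an offset for gene length, 8 were lower and 6 higher, against 8.07% and 6.44%.

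**Figure D2:**
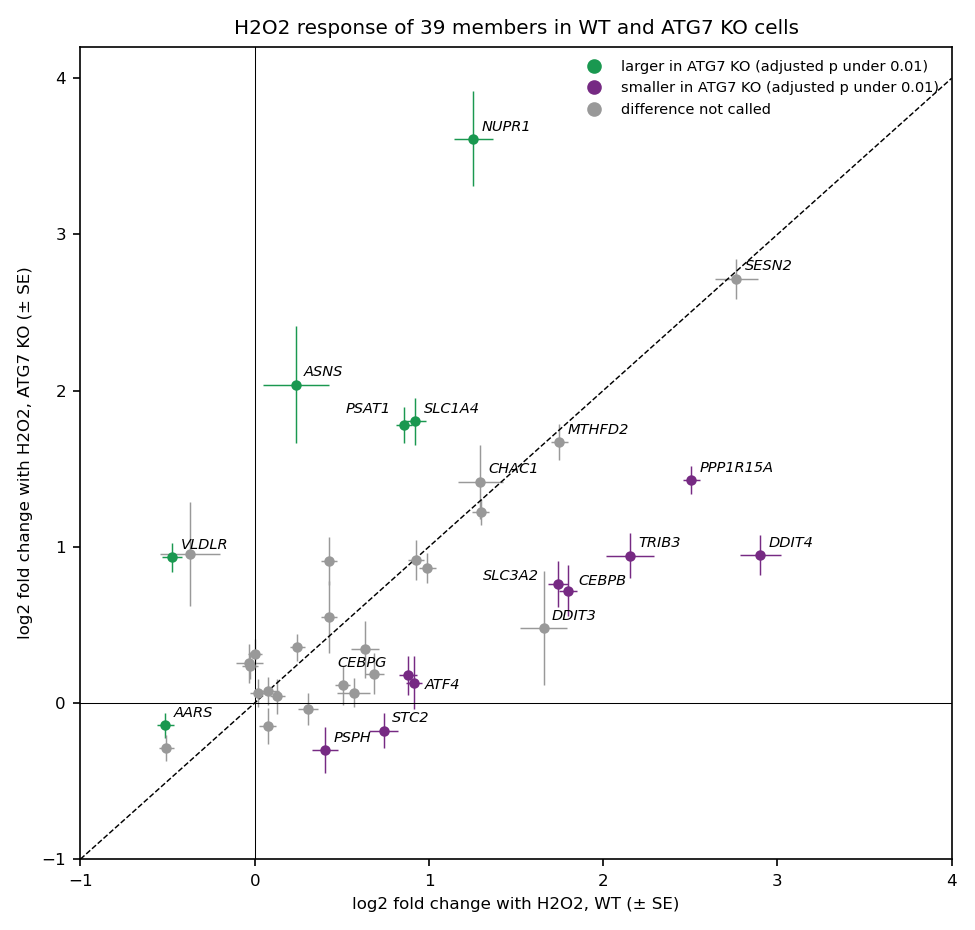
Log2 fold change with H2O2 in WT cells (x axis) and in ATG7 KO cells (y axis) for the 39 members tested in both, with bars for the SE and a dashed line where the responses are equal. Coloured points are the members whose responses differed at adjusted p under 0.01, with 6 above the line and 9 below it.

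Among the transcription factors, the ATF4 mRNA was at 107, 102 and 111 FPKM in untreated WT cells, 207, 208 and 189 in WT cells with H2O2, 151, 101 and 98.9 in untreated ATG7 KO cells and 129, 124 and 133 in ATG7 KO cells with H2O2. Every WT library with H2O2 lay above all others, and replicate 1 of untreated ATG7 KO lay above the ATG7 KO libraries with H2O2 while its group mates lay below them. ATF4 rose in WT cells by 0.91 (SE 0.044, adjusted p 1.97e-23). In ATG7 KO cells the value was 0.13 (SE 0.17, adjusted p 0.562), and 0.35 (SE 0.035, adjusted p 1.66e-19) without that replicate, where it passed. With H2O2 it was lower in ATG7 KO cells, at -0.66 (SE 0.038, adjusted p 7.05e-16), and untreated cells showed no call, at 0.13 (SE 0.17, adjusted p 0.609) or -0.082 (SE 0.045, adjusted p 0.125) without the replicate. The responses differed by -0.78 (SE 0.19, adjusted p 0.00838), a call that was lost without any one library of the other 3 groups, with limma on either FPKM scale and with the gene length offset, and over 21 alternatives adjusted p lay between 6.41e-14 and 0.0267.

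CEBPB, a C/EBP partner of ATF4, stood at 46.4, 46.9 and 43.2 FPKM in untreated WT, 158, 171 and 148 in WT with H2O2, 126, 87.2 and 83.2 in untreated ATG7 KO and 167, 155 and 166 in ATG7 KO with H2O2. The untreated ATG7 KO libraries all lay above untreated WT, and the groups with H2O2 overlapped. CEBPB rose in WT by 1.80 (SE 0.051, adjusted p 7.82e-32), was higher in untreated ATG7 KO cells by 1.12 (SE 0.17, adjusted p 0.00477) and showed 0.028 (SE 0.043, adjusted p 0.587) between lines with H2O2, which passed only with the gene length offset (adjusted p 0.000139). The untreated call was lost without any one untreated WT library or ATG7 KO replicate 2 and with the replicate block (adjusted p 0.0101), and held without replicate 1, and over 16 alternatives adjusted p lay between 7.3e-49 and 0.036. Its response in ATG7 KO cells missed the threshold at 0.72 (SE 0.16, adjusted p 0.0117), passed without untreated replicate 1 at 0.92 (SE 0.037, adjusted p 1.09e-75) and in 4 other alternatives, DESeq2 among them, and was smaller than in WT by a difference of -1.08 (SE 0.18, adjusted p 0.00127).

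DDIT3 encodes CHOP, a C/EBP-like factor linked to cell death in long stress. It was at 3.20, 3.41 and 3.32 FPKM in untreated WT, 11.2, 9.34 and 10.9 in WT with H2O2, 5.20, 2.15 and 2.15 in untreated ATG7 KO and 5.32, 3.96 and 3.88 in ATG7 KO with H2O2. WT libraries with H2O2 were highest, and the first untreated ATG7 KO library lay near the ATG7 KO libraries with H2O2. It rose in WT by 1.66 (SE 0.13, adjusted p 3.63e-15) and was lower in ATG7 KO with H2O2 at -1.27 (SE 0.13, adjusted p 7.94e-10). In ATG7 KO cells its response was 0.48 (SE 0.37, adjusted p 0.326), and 1.02 (SE 0.21, adjusted p 6.13e-06) without untreated replicate 1, where it passed. Its responses differed by -1.18 (SE 0.39, adjusted p 0.0374), and by -0.63 (SE 0.25, adjusted p 0.0316) without that replicate, and both missed the threshold, which the value passed only without a filter on low counts (adjusted p 0.00033). DDIT3 overlaps MARS and MBD6 on the opposite strand, which had mean counts of 2781 and 667 against its 118, and the strand setting of the read counting is not given, so such genes can share or lose reads.

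NUPR1 was at 1.48, 1.36 and 1.58 FPKM in untreated WT, 3.12, 3.82 and 3.64 in WT with H2O2, 0.107, 0.0495 and 0.114 in untreated ATG7 KO and 1.26, 0.912 and 1.19 in ATG7 KO with H2O2. The untreated ATG7 KO values rest on 10, 5 and 12 reads, and no 2 groups overlapped. NUPR1 rose in WT by 1.25 (SE 0.11, adjusted p 5.98e-14) and in ATG7 KO by 3.61 (SE 0.30, adjusted p 0.000178), and it was lower in ATG7 KO both untreated (-4.01 (SE 0.27, adjusted p 0.000225)) and with H2O2 (-1.66 (SE 0.12, adjusted p 2.05e-13)). Its responses differed by 2.36 (SE 0.30, adjusted p 0.000243) on the fitted log2 scale and 0.08 on log2 of FPKM plus 1, where limma gave adjusted p 0.613, so its size depends on how values near 0 are scaled, and over 20 alternatives adjusted p lay between 1.47e-11 and 0.613.

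The remaining factors were ATF5, a paralog of ATF4 translated under the same control, and CEBPG, a C/EBP partner that binds with ATF4. ATF5 ranged over 5.05 to 8.48 FPKM and rose in WT by 0.57 (SE 0.095, adjusted p 9.13e-07), with 0.067 (SE 0.093, adjusted p 0.59) in ATG7 KO cells. Its gene overlaps NUP62 on the opposite strand, with mean counts of 1966 against 362. CEBPG ranged over 16.8 to 54.0 FPKM, rose in WT by 0.88 (SE 0.052, adjusted p 5.23e-18), and was lower in ATG7 KO with H2O2 at -1.25 (SE 0.047, adjusted p 4.17e-20), with a difference of responses of -0.70 (SE 0.15, adjusted p 0.00449). As a group, 6 of 6 factors rose in WT, 1 in ATG7 KO (5 without untreated replicate 1), and 4 were lower in ATG7 KO with H2O2. The shares of all genes beside these and the later counts by role are 30.9% higher in WT, 13.6% higher in ATG7 KO (29.8% without that replicate) and 27.9% lower and 27.7% higher between lines with H2O2.

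**Figure D3:**
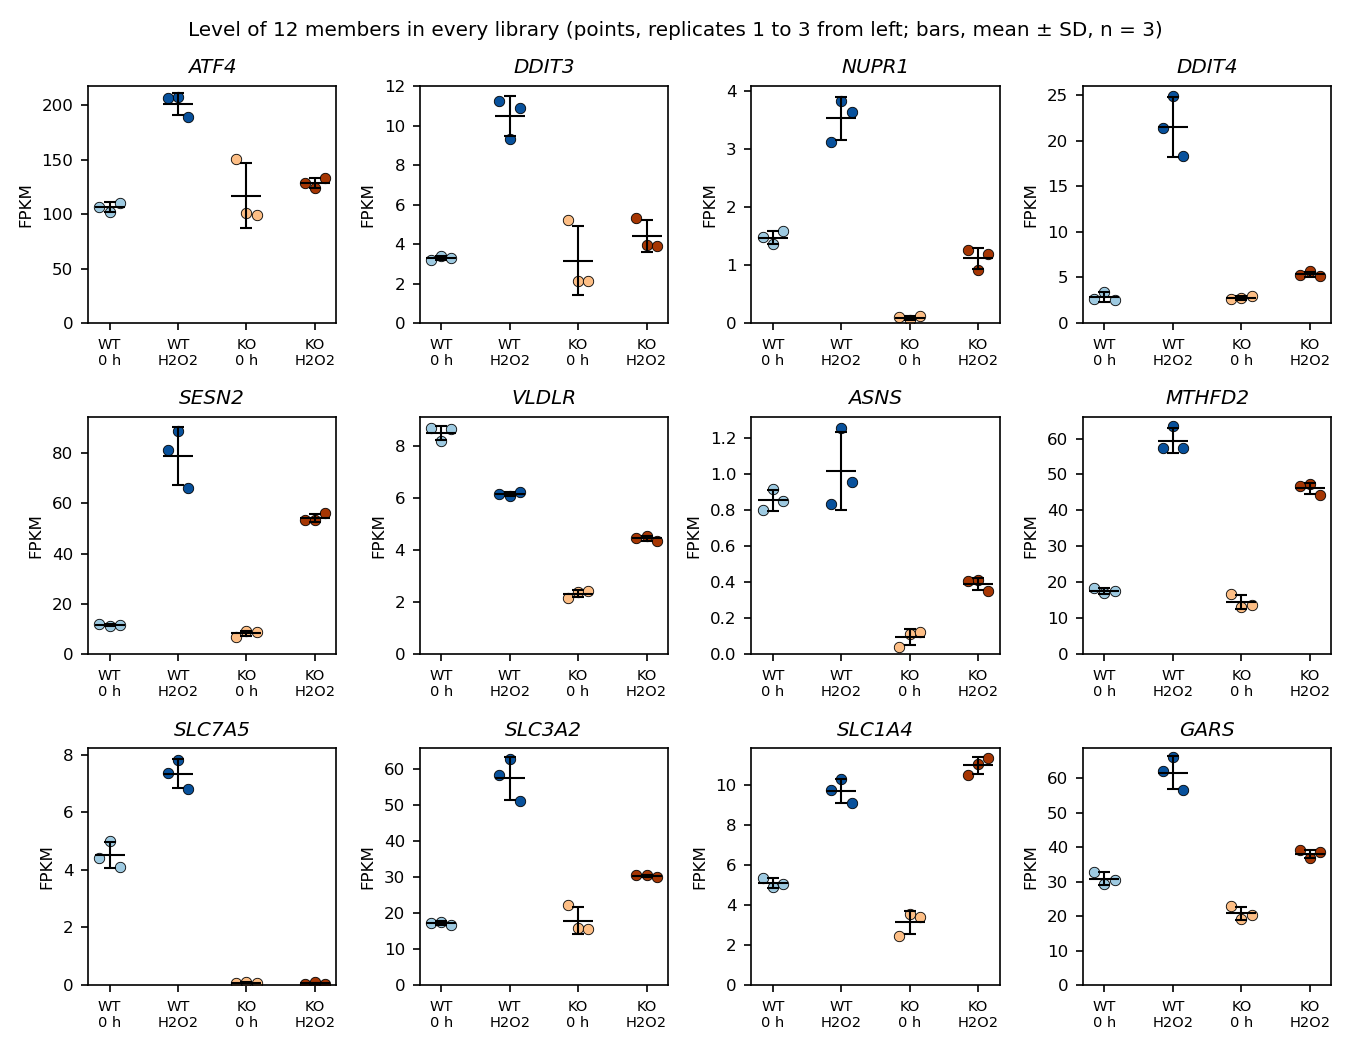
FPKM of the 16 members described by library other than CEBPB, STC2, SARS and CARS, 1 panel a gene, in the 4 groups. Points are replicates, and bars are group means with SD. SLC7A5 lies near 0 in both ATG7 KO groups, and DDIT4 is high only in WT with H2O2 among the 4 groups.

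Among the stress effectors, DDIT4 was at 2.65, 3.43 and 2.49 FPKM in untreated WT, 21.4, 24.9 and 18.4 in WT with H2O2, 2.62, 2.70 and 2.97 in untreated ATG7 KO and 5.25, 5.68 and 5.13 in ATG7 KO with H2O2. Untreated groups overlapped, and every WT library with H2O2 lay far above every ATG7 KO library with H2O2. DDIT4 rose in WT by 2.90 (SE 0.12, adjusted p 1.69e-18) and in ATG7 KO by 0.95 (SE 0.13, adjusted p 0.00117). With H2O2 it was lower in ATG7 KO at -2.01 (SE 0.10, adjusted p 9.44e-17), and the difference of responses was -1.96 (SE 0.20, adjusted p 6.99e-05).

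SESN2 showed no such difference of response. It was at 11.9, 11.2 and 11.5 FPKM in untreated WT, 81.4, 88.7 and 66.2 in WT with H2O2, 6.94, 9.05 and 8.63 in untreated ATG7 KO and 53.2, 53.3 and 56.1 in ATG7 KO with H2O2, so each line with H2O2 lay above both untreated groups and WT lay above ATG7 KO at each time. SESN2 rose in WT by 2.76 (SE 0.12, adjusted p 1.75e-06) and in ATG7 KO by 2.72 (SE 0.13, adjusted p 2.54e-05). The difference of responses was -0.047 (SE 0.16, adjusted p 0.849). Between lines, neither value passed: -0.54 (SE 0.12, adjusted p 0.0142) with H2O2 and -0.49 (SE 0.12, adjusted p 0.0341) untreated. The first passed in 8 of 16 alternatives, among them DESeq2 (adjusted p 1.89e-05) and without WT replicate 2 (0.000701) or 3 (3.71e-27) with H2O2, and over 16 alternatives adjusted p lay between 3.71e-27 and 0.0531. The second passed in 3 of 16, which were DESeq2 (adjusted p 0.00813), the fit of all 12 libraries (0.0063) and without untreated ATG7 KO replicate 1, at -0.38 (SE 0.076, adjusted p 5.96e-06), and over 16 alternatives adjusted p lay between 5.96e-06 and 0.134.

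TRIB3, PPP1R15A and CHAC1, an enzyme that degrades glutathione, rose in both lines. In WT the log2 fold changes were 2.16 with adjusted p 9.68e-06, 2.50 with adjusted p 5.47e-39 and 1.29 with adjusted p 6.97e-12 in that order, and in ATG7 KO they were 0.94 with adjusted p 0.00214, 1.43 with adjusted p 5.44e-05 and 1.42 with adjusted p 0.00323. All 3 were lower in ATG7 KO with H2O2, at -1.73, -1.10 and -1.57, and CHAC1 was also lower in untreated ATG7 KO at -1.69 (SE 0.23, adjusted p 0.00357). The responses of TRIB3 and PPP1R15A differed between lines, at -1.21 with adjusted p 0.000925 and -1.08 with adjusted p 4.57e-05, and that of CHAC1 did not pass at 0.12 with adjusted p 0.776. Over the 5 effectors, 5 rose in WT and 5 in ATG7 KO, with medians of 2.50 and 1.42, and 4 were lower in ATG7 KO with H2O2.

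STC2, a secreted glycoprotein, was at 34.3, 35.6 and 32.0 FPKM in untreated WT, 60.8, 60.8 and 49.3 in WT with H2O2, 34.4, 40.1 and 43.1 in untreated ATG7 KO and 34.6, 35.8 and 33.8 in ATG7 KO with H2O2. WT libraries with H2O2 lay above all others, and the remaining groups overlapped in part. STC2 rose in WT by 0.74 (SE 0.083, adjusted p 3.77e-05) and was lower in ATG7 KO with H2O2 at -0.72 (SE 0.086, adjusted p 0.000347), with a difference of responses of -0.92 (SE 0.14, adjusted p 0.000802). In ATG7 KO cells the response was -0.18 (SE 0.11, adjusted p 0.238), and it fell by 0.27 (SE 0.037, adjusted p 4.22e-12) without untreated replicate 1. Untreated ATG7 KO differed from WT by 0.20 (SE 0.12, adjusted p 0.273), and by 0.30 (SE 0.045, adjusted p 2.66e-09) without that replicate, where it passed.

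VLDLR, a receptor for very low density lipoprotein and reelin, moved in opposite directions in the lines. Its levels were 8.68, 8.17 and 8.62 FPKM in untreated WT, 6.13, 6.05 and 6.21 in WT with H2O2, 2.17, 2.36 and 2.42 in untreated ATG7 KO and 4.45, 4.54 and 4.33 in ATG7 KO with H2O2, and no 2 groups overlapped. It fell in WT by 0.47 (SE 0.055, adjusted p 1.87e-10) and rose in ATG7 KO by 0.93 (SE 0.094, adjusted p 0.00035), with a difference of 1.41 (SE 0.10, adjusted p 6.13e-06). It was lower in ATG7 KO untreated at -1.87 (SE 0.10, adjusted p 0.000108) and with H2O2 at -0.47 (SE 0.056, adjusted p 9.86e-09).

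Among the enzymes, ASNS makes asparagine from aspartate and is a standard readout of ATF4. Its promoter window above holds the motif at position -68 from the start. It was scarce, at 0.799, 0.915 and 0.847 FPKM in untreated WT, 0.834, 1.25 and 0.953 in WT with H2O2, 0.0408, 0.113 and 0.121 in untreated ATG7 KO and 0.406, 0.410 and 0.349 in ATG7 KO with H2O2. These rest on 62, 75 and 67, 63, 86 and 73, 3, 9 and 10 and 31, 30 and 27 reads. The WT groups overlapped, and every ATG7 KO library lay below every WT library. ASNS did not pass in WT (0.24 (SE 0.19, adjusted p 0.271)), rose in ATG7 KO by 2.04 (SE 0.38, adjusted p 0.0048) and was lower in ATG7 KO untreated at -3.18 (SE 0.34, adjusted p 0.00123) and with H2O2 at -1.38 (SE 0.23, adjusted p 3.05e-06). Its responses differed by 1.80 (SE 0.39, adjusted p 0.00523).

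Calls of ASNS that involve untreated ATG7 KO cells were lost under some alternatives, and the part of its low read counts in this was not tested. The ATG7 KO response held without untreated replicate 1 and was lost without any other single ATG7 KO library and with the replicate block, and over 15 alternatives adjusted p lay between 0.000107 and 0.0249. The untreated difference was lost without any one untreated WT library, and over 15 alternatives adjusted p lay between 1.14e-13 and 0.012. The difference of responses was lost without WT replicate 1, 2 or 3 untreated, WT replicate 1 or 3 with H2O2 or any ATG7 KO replicate with H2O2. It was also lost with limma on either FPKM scale, and over 20 alternatives adjusted p lay between 0.000636 and 0.108, with 0.23 on log2 of FPKM plus 1. A processed transcript, AC079781.5, overlaps ASNS on the same strand with a mean count of 9.83 against 44.7.

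MTHFD2, a mitochondrial enzyme of the folate cycle, was at 18.5, 16.9 and 17.5 FPKM in untreated WT, 57.5, 63.5 and 57.2 in WT with H2O2, 16.7, 13.0 and 13.6 in untreated ATG7 KO and 46.9, 47.2 and 44.3 in ATG7 KO with H2O2. Each line with H2O2 lay far above its untreated libraries, and ATG7 KO lay below WT at each time. MTHFD2 rose in WT by 1.75 (SE 0.049, adjusted p 1.21e-32) and in ATG7 KO by 1.67 (SE 0.12, adjusted p 8.11e-05), with a difference of -0.077 (SE 0.13, adjusted p 0.677). With H2O2 it was lower in ATG7 KO at -0.37 (SE 0.040, adjusted p 1.47e-09). Untreated, the value was -0.29 (SE 0.12, adjusted p 0.132), and -0.40 (SE 0.057, adjusted p 2.81e-10) without replicate 1, where it passed.

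PHGDH, PSAT1 and PSPH carry out the 3 steps of serine synthesis in that order. PSAT1 rose in WT by 0.86 (SE 0.046, adjusted p 1.21e-21) and more in ATG7 KO by 1.78 (SE 0.11, adjusted p 6.02e-05), with a difference of 0.92 (SE 0.12, adjusted p 0.000342), and its level in untreated ATG7 KO was 24.6, 19.1 and 20.0 FPKM against 74.0, 69.3 and 69.8 in untreated WT. PHGDH rose by 0.43 in WT and 0.91 in ATG7 KO (adjusted p 2.34e-11 and 0.00346), with a difference of 0.48 (SE 0.17, adjusted p 0.0434), which was not called, and 0.69 (SE 0.067, adjusted p 1.75e-15) without untreated replicate 1, where it passed. PSPH rose in WT by 0.41 (SE 0.075, adjusted p 5.89e-06), showed -0.30 (SE 0.15, adjusted p 0.14) in ATG7 KO, and had a lower response there at -0.71 (SE 0.17, adjusted p 0.00785). All 3 were lower in ATG7 KO with H2O2, at -0.44, -0.83 and -0.68, and PHGDH and PSAT1 were lower in untreated ATG7 KO at -0.92 and -1.74.

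Of the other enzymes, PYCR1, which makes proline, ranged over 11.2 to 22.2 FPKM, rose in WT by 0.30 (SE 0.059, adjusted p 1.13e-05) and was lower in ATG7 KO with H2O2 at -0.84 (SE 0.058, adjusted p 5.58e-14). SHMT2, the mitochondrial serine hydroxymethyltransferase, was at 25.0 to 34.0 FPKM with no call in either response and was lower in ATG7 KO with H2O2 at -0.34 (SE 0.046, adjusted p 1.12e-07). ALDH1L2, a mitochondrial folate dehydrogenase, was scarce at 0.114 to 0.805 FPKM and was lower in ATG7 KO untreated (-1.97) and with H2O2 (-0.65), and its gene overlaps C12orf45 on the opposite strand with mean counts of 700.5 against 64.3. PCK2, the mitochondrial phosphoenolpyruvate carboxykinase, passed only between lines with H2O2 among the 5 comparisons, at 0.30 (SE 0.075, adjusted p 0.00091). That call was lost in the fit of all 12 libraries, where 0 members were higher, against 14% of genes. Without untreated ATG7 KO replicate 1, PCK2 also passed in the ATG7 KO response at 0.37 (SE 0.079, adjusted p 1.22e-05) and in the difference at 0.41 (SE 0.11, adjusted p 0.00163). Over the 9 enzymes, 5 rose in WT, 4 in ATG7 KO (5 without untreated replicate 1), and 8 were lower and 1 higher in ATG7 KO with H2O2.

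Among the transporters, SLC7A5 and SLC3A2 are the light and heavy subunits of LAT1, which imports leucine and other large neutral amino acids. SLC7A5 was at 4.41, 5.00 and 4.11 FPKM in untreated WT, 7.37, 7.83 and 6.82 in WT with H2O2, 0.0767, 0.106 and 0.0569 in untreated ATG7 KO and 0.0369, 0.0898 and 0.0486 in ATG7 KO with H2O2. The ATG7 KO libraries held 6, 9 and 5 reads untreated and 3, 7 and 4 with H2O2, against 365, 436 and 346 and 593, 572 and 557 in WT. Every ATG7 KO library was thus near 0, where every WT library was well above it. SLC7A5 rose in WT by 0.70 (SE 0.081, adjusted p 2.15e-10) and was lower in ATG7 KO untreated at -5.79 (SE 0.22, adjusted p 6.6e-05) and with H2O2 at -6.95 (SE 0.18, adjusted p 9.48e-25). Without untreated replicate 1 the untreated value was -5.76 (SE 0.22, adjusted p 3.58e-75). Between responses the difference was -1.15 (SE 0.42, adjusted p 0.0623), which missed the threshold, passed only with limma on log2 of FPKM plus 1 (adjusted p 0.00185) and rests on few reads.

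SLC3A2 was at 17.2, 17.6 and 16.6 FPKM in untreated WT, 58.3, 62.9 and 51.1 in WT with H2O2, 22.3, 15.8 and 15.6 in untreated ATG7 KO and 30.6, 30.4 and 30.0 in ATG7 KO with H2O2. WT with H2O2 was highest, ATG7 KO with H2O2 lay between it and the untreated libraries, and replicate 1 was the highest of the untreated libraries. It rose in WT by 1.74 (SE 0.057, adjusted p 4.1e-21) and in ATG7 KO by 0.76 (SE 0.15, adjusted p 0.00589), with a difference of -0.98 (SE 0.17, adjusted p 0.00157). With H2O2 it was lower in ATG7 KO at -0.93 (SE 0.056, adjusted p 2.16e-10), and untreated the value was 0.061 (SE 0.15, adjusted p 0.802), or -0.12 (SE 0.055, adjusted p 0.0644) without replicate 1. The ATG7 KO response was 0.94 (SE 0.045, adjusted p 1.51e-61) without untreated replicate 1 and lost its call without any other single ATG7 KO library, and over 16 alternatives adjusted p lay between 1.51e-61 and 0.0294.

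SLC1A4, a carrier of alanine, serine and cysteine, was at 5.38, 4.90 and 5.08 FPKM in untreated WT, 9.78, 10.3 and 9.12 in WT with H2O2, 2.47, 3.55 and 3.39 in untreated ATG7 KO and 10.5, 11.1 and 11.4 in ATG7 KO with H2O2. ATG7 KO was below WT in every untreated library and above it in every library with H2O2. It rose in WT by 0.92 (SE 0.063, adjusted p 8.05e-18) and more in ATG7 KO by 1.80 (SE 0.15, adjusted p 0.000177), with a difference of 0.88 (SE 0.16, adjusted p 0.00192). With H2O2 it was higher in ATG7 KO by 0.17 (SE 0.053, adjusted p 0.00586), a call lost without WT replicate 1 or 3 or ATG7 KO replicate 2 or 3 with H2O2, by DESeq2, by limma and under several other settings, and over 16 alternatives adjusted p lay between 0.000672 and 0.225. Untreated, the value was -0.71 (SE 0.15, adjusted p 0.0192), and -0.56 (SE 0.082, adjusted p 5.61e-10) without replicate 1, where it passed, as it did in 4 other alternatives.

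The other carriers were SLC1A5, which imports glutamine, SLC7A11, the cystine carrier of system xc-, and SLC7A1, which imports arginine and lysine. SLC1A5 ranged over 30.7 to 122 FPKM, rose in WT by 1.30 (SE 0.050, adjusted p 1.66e-24) and in ATG7 KO by 1.22 (SE 0.083, adjusted p 6.79e-05), and was lower in ATG7 KO with H2O2 at -0.60 (SE 0.043, adjusted p 2.48e-12) and untreated at -0.52 (SE 0.090, adjusted p 0.00826). SLC7A11 ranged over 6.12 to 21.9 FPKM, rose in WT by 0.63 (SE 0.080, adjusted p 2.59e-05), showed 0.34 (SE 0.18, adjusted p 0.168) in ATG7 KO, or 0.16 (SE 0.052, adjusted p 0.0048) and a call without untreated replicate 1, and was lower there with H2O2 at -0.95 (SE 0.11, adjusted p 4e-04). SLC7A1 ranged over 16.4 to 39.2 FPKM, with its lowest value in untreated ATG7 KO replicate 1, rose in WT by 0.43 (SE 0.047, adjusted p 3.1e-11) and passed in no other of the 5 comparisons with all libraries. In ATG7 KO its response was 0.55 (SE 0.23, adjusted p 0.0931), and 0.31 (SE 0.036, adjusted p 1.58e-15) without that replicate, where it passed. Of the 6 subunits, 6 rose in WT, 3 of 5 tested rose in ATG7 KO (5 without untreated replicate 1), and 4 were lower and 1 higher in ATG7 KO with H2O2.

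The 12 aminoacyl-tRNA synthetases, which load amino acids onto their tRNAs in the cytosol, split by gene. GARS, for glycine, was at 32.8, 29.3 and 30.5 FPKM in untreated WT, 62.1, 66.1 and 56.5 in WT with H2O2, 22.9, 19.2 and 20.4 in untreated ATG7 KO and 39.0, 36.7 and 38.5 in ATG7 KO with H2O2. No 2 groups overlapped, with ATG7 KO below WT at each time. It rose in WT by 0.99 (SE 0.051, adjusted p 9.63e-21) and in ATG7 KO by 0.87 (SE 0.10, adjusted p 0.00051), with a difference of -0.13 (SE 0.12, adjusted p 0.445). It was lower in ATG7 KO with H2O2 at -0.70 (SE 0.045, adjusted p 6.55e-14) and untreated at -0.57 (SE 0.10, adjusted p 0.00904). The untreated call was lost without any one library other than ATG7 KO replicate 1, without which it was -0.63 (SE 0.053, adjusted p 1.01e-25), and also with the replicate block and with limma on either FPKM scale, and over 16 alternatives adjusted p lay between 1.01e-25 and 0.0609.

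SARS, for serine, was at 48.7, 44.3 and 48.0 FPKM in untreated WT, 88.8, 95.5 and 84.6 in WT with H2O2, 50.7, 40.1 and 36.8 in untreated ATG7 KO and 80.7, 78.2 and 82.1 in ATG7 KO with H2O2. Libraries with H2O2 lay well above untreated ones in both lines, and the untreated groups overlapped through replicate 1 of ATG7 KO. It rose in WT by 0.93 (SE 0.046, adjusted p 1e-22) and in ATG7 KO by 0.91 (SE 0.13, adjusted p 0.00161), with a difference of -0.011 (SE 0.15, adjusted p 0.965). The ATG7 KO call was lost without any one ATG7 KO library with H2O2, and over 16 alternatives adjusted p lay between 1.72e-86 and 0.0122. With H2O2 it was lower in ATG7 KO by a small margin, -0.16 (SE 0.039, adjusted p 0.000471), a call lost without ATG7 KO replicate 2 with H2O2 and under some settings, and over 16 alternatives adjusted p lay between 2.55e-07 and 0.231. Untreated, the value was -0.15 (SE 0.13, adjusted p 0.467), and -0.28 (SE 0.048, adjusted p 6.35e-08) without replicate 1, where it passed.

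CARS, for cysteine, was at 6.98, 6.17 and 6.17 FPKM in untreated WT, 10.3, 10.9 and 9.98 in WT with H2O2, 6.32, 4.72 and 4.62 in untreated ATG7 KO and 6.17, 5.88 and 5.82 in ATG7 KO with H2O2. It was high in WT with H2O2, and the other groups lay close together. CARS rose in WT by 0.69 (SE 0.056, adjusted p 3.31e-15), showed 0.19 (SE 0.13, adjusted p 0.291) in ATG7 KO, and was lower in ATG7 KO with H2O2 at -0.81 (SE 0.050, adjusted p 2.94e-15). Without untreated replicate 1 the ATG7 KO response was 0.34 (SE 0.060, adjusted p 1.15e-07) and the untreated difference -0.46 (SE 0.064, adjusted p 6.99e-11), against -0.31 (SE 0.14, adjusted p 0.176) with it. The difference of responses was -0.50 (SE 0.15, adjusted p 0.0281), and -0.33 (SE 0.082, adjusted p 0.000432) without the replicate, where it passed.

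In WT cells, TARS (0.51), YARS (0.24) and NARS (0.13), for threonine, tyrosine and asparagine, also rose on the log2 scale, while AARS and LARS, for alanine and leucine, fell by 0.51 (SE 0.049, adjusted p 6.79e-13) and 0.51 (SE 0.044, adjusted p 4.46e-14). EPRS, IARS, MARS and WARS, for glutamate with proline, isoleucine, methionine and tryptophan, did not pass, at -0.027 to 0.074. In ATG7 KO cells the other synthetases did not pass, at -0.29 to 0.36, and without untreated replicate 1 the group had 8 higher and 2 lower, against 29.8% and 28.6% of all genes. The response of AARS alone in this group differed between lines, at 0.37 (SE 0.091, adjusted p 0.00989), and without untreated replicate 1 there were 4 higher and 2 lower, against 17.8% and 16.3%. With H2O2, 9 of the 12 were lower in ATG7 KO, led by CARS, GARS and WARS (-0.56), AARS was higher at 0.15 (SE 0.043, adjusted p 0.00389), and EPRS and LARS did not pass. AARS lost this call in the fit of all 12 libraries, where 0 members were higher, against 14% of genes. Untreated, GARS, IARS (-0.58) and WARS (-0.55) were lower in ATG7 KO, and 11 of 12 without replicate 1, where 3.28% and 17.9% of all genes were lower. Levels were 4.79 to 85.4 FPKM for the synthetases other than GARS, SARS and CARS, with WARS lowest. YARS overlaps S100PBP on the opposite strand, with mean counts of 1073 against 3744.

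**Figure D4:**
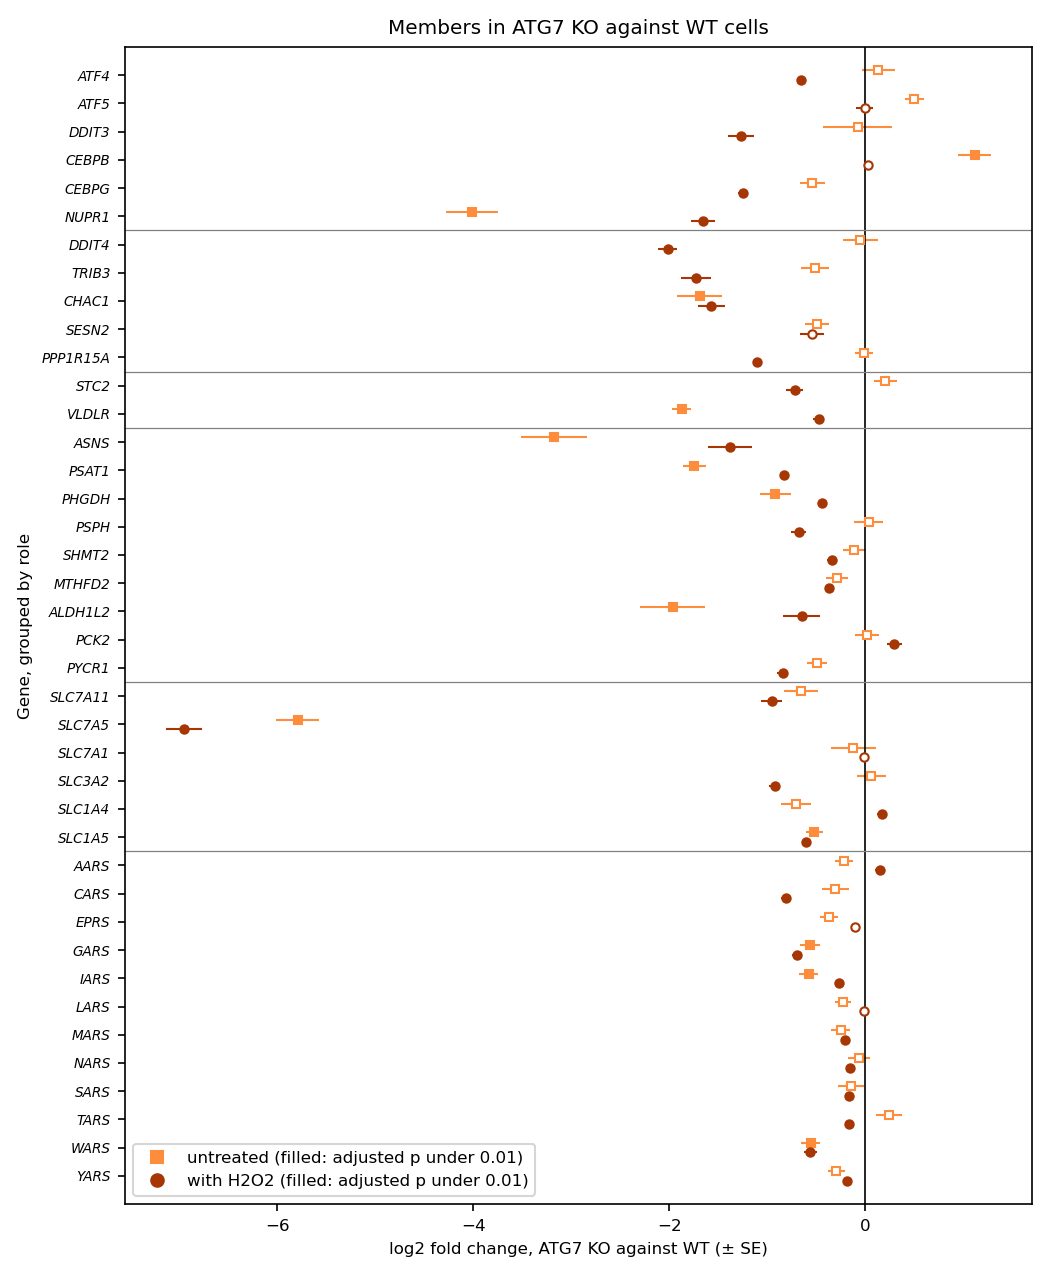
Log2 fold change of ATG7 KO against WT cells for the 40 members, untreated and with H2O2, with bars for the SE and members ordered by role. SLC7A5 is lowest in both conditions, and most members lie below 0 with H2O2.

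Other genes of the pathway were read from lists that share no gene with the members, in the same fits. Of 18 upstream genes (the eIF2 alpha kinases, subunits of eIF2 and eIF2B and their regulators), 7 were higher and 9 lower in the WT response (median -0.19 against -0.0053 for all genes), with EIF2S1, which encodes eIF2 alpha, at 0.89 with adjusted p 2.62e-24 and OMA1 at -0.79 with adjusted p 5.98e-06. In the ATG7 KO response 1 was higher and 2 lower, median -0.020, and 6 and 9 without untreated replicate 1. With H2O2, 5 were higher and 6 lower in ATG7 KO, median -0.00059, with EIF2AK3, the kinase PERK, at -0.74 with adjusted p 2.57e-08 and EIF2AK2, the kinase PKR, at 0.55 with adjusted p 8.56e-12. Untreated, edgeR called 0 and 0, median -0.0085, with 4 at an unadjusted p under 0.05, and 4 higher and 6 lower without replicate 1. The difference of responses gave 1 and 0, median -0.044, and 3 and 2 without the replicate.

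Of 22 other known ATF4 targets, 20 were tested in WT, with 10 higher and 5 lower (median 0.33), led by the stress cytokine GDF15 at 7.30 with adjusted p 1.37e-16 and the factor ATF3 at 4.28 with adjusted p 1.41e-07. In ATG7 KO 6 of 19 were higher and 4 lower, median 0.31, again with GDF15 at 8.37 with adjusted p 2.51e-06, and without untreated replicate 1 the counts were 10 and 6. Between lines with H2O2, 13 were lower and 2 higher, median -0.59, with INHBE at -2.56 with adjusted p 0.000147 and GADD45A at -1.94 with adjusted p 6.72e-05, while GDF15 was higher at 0.95 with adjusted p 2.83e-16. The value of INHBE rests on 15, 11 and 16 reads in WT and 1, 3 and 3 in ATG7 KO. Untreated, 5 were lower and 0 higher, median -0.55, or 13 and 2 without the replicate. For the difference of responses, 1 was higher and 2 lower, median -0.033, or 2 and 4 without it. Medians over all genes, shares called with and without the replicate, and counts at an unadjusted p under 0.05 were those given with the members. For the difference of responses, 7175 of 16856 genes had an unadjusted p under 0.05 by edgeR.

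Cytosolic synthetases outside the set (8 genes) gave 1 higher and 3 lower in WT, 0 and 1 in ATG7 KO, 3 and 3 between lines with H2O2, and 0 in either direction by edgeR untreated and for the difference, where 3 and 2 had an unadjusted p under 0.05. Their medians were -0.079, -0.0049, -0.0093, 0.060 and -0.080 in that order, and QARS, for glutamine, was at -0.71 with adjusted p 1.45e-17 in WT and -1.11 with adjusted p 0.000257 in ATG7 KO. Without untreated ATG7 KO replicate 1, higher and lower counts were 3 and 3 in ATG7 KO, 3 and 2 untreated and 2 and 2 for the difference. Of 17 mitochondrial synthetases, 1 was higher and 9 lower in WT, 0 passed by edgeR in ATG7 KO and untreated (5 and 2 at an unadjusted p under 0.05), 8 were higher and 1 lower in ATG7 KO with H2O2, and 3 and 1 for the difference. Their medians were -0.35, -0.12, 0.30, 0.16 and 0.21 for the responses of WT and ATG7 KO, the lines with H2O2, the lines untreated and the difference, AARS2 was at 0.91 with adjusted p 2.6e-13 with H2O2, and MARS2 was at 1.05 with adjusted p 8.76e-12 in WT and -1.15 with adjusted p 0.00017 for the difference. Counts without the replicate were 3 and 5 in ATG7 KO, 3 and 1 untreated and 6 and 1 for the difference.

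Of 12 chaperones and other genes of the unfolded protein response in the endoplasmic reticulum, 7 were higher and 4 lower in WT (median 0.37), and 1 and 3 in ATG7 KO (median -0.25). HSPA5, the chaperone BiP, was at 1.25 with adjusted p 1.98e-22 in WT and -0.81 with adjusted p 0.00325 in ATG7 KO, with a difference of -2.06 with adjusted p 1.04e-05. With H2O2, 4 were higher and 6 lower in ATG7 KO (median -0.23), untreated 0 passed by edgeR (6 at an unadjusted p under 0.05, median 0.19), and for the difference 2 were higher and 5 lower (median -0.54). Without untreated replicate 1 these counts were 2 and 8 in ATG7 KO, 5 and 4 untreated and 3 and 9 for the difference. DESeq2 values were read for the members alone.

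For the marker lists, edgeR called 4 of 4 tested fibroblast genes lower in WT with H2O2 (median -1.08) and 3 of 4 lower in ATG7 KO (median -0.76), or 4 without untreated replicate 1. Of 4 tested lens epithelial genes, 2 were higher and 1 lower in WT (median 0.21), and 2 higher in ATG7 KO (median 0.68), with 2 and 1 higher and lower without that replicate. Of 2 lens fibre genes, 1 was higher and 1 lower in WT (median 0.17), and 2 leukocyte genes were lower there (median -2.10). Between lines with H2O2, 1 fibroblast gene was higher and 2 lower in ATG7 KO (median -0.23), as were 1 and 2 lens epithelial genes (median -0.25). Untreated, edgeR called 0 fibroblast and 0 lens epithelial genes (3 and 1 at an unadjusted p under 0.05) and 1 of 2 leukocyte genes lower. With replicate 1 left out, 1 fibroblast gene was higher and 3 lower, and 2 lens epithelial and 2 leukocyte genes were lower. Shares of all genes higher and lower were 30.9% and 30.1% in WT and 13.6% and 12.4% in ATG7 KO. They were 27.7% and 27.9% between lines with H2O2 and 4.42% and 3.28% untreated. Without that replicate they were 29.8% and 28.6% in ATG7 KO and 18.2% and 17.9% untreated.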

How the data were processed

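Total RNA of 12 HLE-B3 libraries was sequenced by the authors, 3 biological replicates in each of 4 groups. The deposited counts are whole numbers of reads per gene, made with HISAT2 2.0.5 and featureCounts 1.5.0-p3 on GRCh38 per the submitters' processing notes. The deposited FPKM values are these counts scaled by the authors for gene length and library size. The sources used here give neither the strand setting nor the handling of reads that map to several places.

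Counts were tested with edgeR 4.0.16 (TMM scaling, filterByExpr with a minimum count of 10, robust quasi-likelihood fit) in R 4.3.3, each pair of groups on its own 6 libraries and the difference of responses on 12, without covariates. Adjusted p is by Benjamini-Hochberg over all genes tested. The analysis was tested on simulated data. These had less spread between replicates than was estimated for the comparisons using untreated ATG7 KO cells, so that test does not cover their spread. The estimated coefficients of variation were 0.161 for the ATG7 KO response, 0.162 for untreated cells and 0.12 for the difference. Alternatives used DESeq2 1.42.0, limma 3.58.1 on log2 of FPKM plus 1 or 0.1, other scalings, filters and thresholds, a replicate block, a gene length offset (lowess span 0.3) and each library left out. Where that left a group with 2 libraries, the fit pooled the spread over genes.

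The members and lists were chosen with earlier results of these data known. Values in every library are given for ATF4, DDIT3, ASNS and, in each role group, the member with the largest absolute log2 fold change in each response, between lines with H2O2 and in the difference, at a mean FPKM above 1 in at least 1 group. Up to 4 genes of each other list are named, each among the largest log2 fold changes of its list in a comparison for which its value is given. Promoters are printed for such members with a motif match.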

Additional observations from a re-analysis of the deposited data

Results flagged for a closer look

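The test of the difference between the H2O2 responses (ATG7 KO minus WT, edgeR, adjusted p under 0.01) singled out 15 members, given here on the log2 scale. The response was smaller or opposite in ATG7 KO for ATF4 (-0.78), CEBPB (-1.08), CEBPG (-0.70), DDIT4 (-1.96), TRIB3 (-1.21), PPP1R15A (-1.08), STC2 (-0.92), PSPH (-0.71) and SLC3A2 (-0.98). It was larger or opposite for NUPR1 (2.36), VLDLR (1.41), ASNS (1.80), PSAT1 (0.92) and SLC1A4 (0.88), and less negative for AARS (0.37).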

How the results depend on the processing

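Counts in the WT response stayed within 1.5 times the reported ones under every alternative but the stricter thresholds modelled on the study's (11 higher, 0 lower). Those thresholds gave 8 higher in the ATG7 KO response, 0 higher and 9 lower between lines with H2O2, 5 lower untreated, and 3 higher and 4 lower for the difference. The shares of all genes beside these counts are given with each comparison above. At adjusted p under 0.05, 1 member was lower in the ATG7 KO response (21.7% of all genes). At that threshold 2 were higher and 19 lower untreated (9.76% and 8.76%), and 14 were lower for the difference (15.6%). DESeq2 and a fit of all 12 libraries each gave the same 1, 2 and 19 for these. Shares of all genes were 17%, 8.78% and 7.57% with DESeq2 and 19.1%, 9.88% and 8.83% with 12 libraries. The fit of 12 libraries gave 0 higher between lines with H2O2, against 14% of genes. Upper quartile scaling gave 1 higher there, against 24.9% of genes. The filter of 10 counts in every library gave 1 higher there and 3 higher for the difference, against 28.5% and 7.84%. Limma on log2 of FPKM plus 1 gave 7 lower untreated, against 2.87%.

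Leaving out 1 library gave 28 to 29 higher and 3 lower (3 to 3) in WT, 10 to 29 higher and 0 to 3 lower in ATG7 KO, 1 to 2 higher and 29 to 33 lower between lines with H2O2, 0 to 3 higher and 4 to 28 lower untreated, and 4 to 12 higher and 6 to 13 lower for the difference. Shares of all genes in these fits, higher and lower, were 28.2% to 30.1% and 27% to 29.3% in WT. In ATG7 KO they were 6.54% to 29.8% and 4.52% to 28.6%, and between lines with H2O2 24% to 26.9% and 24.1% to 27.4%. Untreated they were 1.14% to 18.2% and 0.68% to 17.9%, and for the difference 3.59% to 17.8% and 4.1% to 16.3%.

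Replicate numbers were also used as a block. Once group means were taken off, libraries with equal numbers correlated at -0.0429 to 0.0976, with no sign of pairing. With the replicate block, 0 were higher and 5 lower untreated, 29 and 3 in WT, 14 and 0 in ATG7 KO, 3 and 32 between lines with H2O2, and 5 and 9 for the difference. Shares of all genes in that order were 2.04% and 1.21%, 30.9% and 30.2%, 10.4% and 8.67%, 27.4% and 27.3%, and 5.86% and 5.96%.

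Among the members described by library, signs changed for values that did not pass the test in the reported fit. Over the left-out libraries they ran, for ATG7 KO against WT or the difference of responses, CEBPB with H2O2 from -0.024 to 0.080, DDIT4 untreated from -0.14 to 0.11, ATF4 untreated from -0.082 to 0.24, SLC3A2 untreated from -0.12 to 0.15, DDIT3 untreated from -0.62 to 0.14, SARS difference from -0.095 to 0.14, SESN2 difference from -0.15 to 0.048 and MTHFD2 difference from -0.14 to 0.044. Other settings gave CEBPB with H2O2 -0.013 (upper quartile scaling), ATF4 untreated -0.017, SESN2 difference 0.070, SARS difference 0.067 (gene length correction), SARS difference 0.014 (no filter on low counts), SARS difference 0.00049 (limma on log2(FPKM + 0.1)).

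Only the members described by library were tallied under alternatives. Of their 1335 values, 1213 kept their direction and their side of the threshold, 33 newly passed, 69 no longer passed and 20 changed sign, none of them past the threshold in the reported fit. Except for the left-out libraries and the changed thresholds, the cause was not tested. Members with few reads, such as SLC7A5, NUPR1 and ASNS in ATG7 KO cells, are limited by depth, overlapping genes can share or lose reads, and p-values measure the spread between biological replicates of these cultures alone.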

Other observations

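SLC7A5 lies on chromosome 16, and the levels of its protein-coding neighbours, 4 on each side, were read after its near absence in ATG7 KO libraries was seen. By edgeR, for ATG7 KO against WT on the log2 scale, KLHDC4 had -0.34 untreated (adjusted p 0.0716) and -0.68 with H2O2 (adjusted p 1.1e-07), and BANP had -0.14 untreated (adjusted p 0.503) and 0.17 with H2O2 (adjusted p 0.0818). Farther out, ZCCHC14 had 0.10 untreated (adjusted p 0.749) and 0.19 with H2O2 (adjusted p 0.0212) and MAP1LC3B had -0.33 untreated (adjusted p 0.145) and -0.81 with H2O2 (adjusted p 1.46e-14), while ZNF469 had -0.18 untreated (adjusted p 0.717) and -0.80 with H2O2 (adjusted p 1.04e-06) and ZFPM1 had -0.23 untreated (adjusted p 0.33) and -0.80 with H2O2 (adjusted p 2.14e-10). JPH3 and CA5A were too scarce to be tested. The values of SLC7A5 were -5.79 and -6.95.

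A pseudogene of SLC7A5, SLC7A5P1, had few reads: 5, 9 and 15 in untreated WT, 44, 37 and 29 in WT with H2O2, 3, 6 and 13 in untreated ATG7 KO and 7, 16 and 16 in ATG7 KO with H2O2. Reads of either gene that map to both can be assigned to the other.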
